A study of Mus musculus with 6 samples.

Results

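Glycolysis carries glucose to pyruvate in the cytosol, and its genes were followed here together with those of the pentose phosphate path and of pyruvate entry into mitochondria in mouse colorectal cancer organoids treated with chemotherapy. The genes were taken from a fixed list of 41, covering transporters of glucose and lactate, the glycolytic enzymes, lactate dehydrogenase, the enzymes that set the level of fructose 2,6-bisphosphate, the pyruvate dehydrogenase complex with its kinases, and the pentose phosphate enzymes. All 41 were found by symbol among the 24190 genes counted, and 40 of them were among the 14692 genes with enough reads to be tested. After Folfiri, 34 of the 40 were lower (38.8% of all tested genes), 2 were higher (40.3%) and 4 did not pass the test. The fall was steepest for Aldoc, Pdk1, Slc2a1 and Slc16a3, whereas Eno2 and Rpia rose.

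The organoids were grown from MTO54, a line of mouse tumor organoids (MTOs) from colorectal cancer with the triple mutant genotype labelled AKP. Single cells were seeded in basement membrane extract, and 2 days later received either complete stem cell medium (Control, 3 samples) or the same medium with Folfiri (3 samples) for 2 days. A figure legend of the study gives a longer treatment, and the sample labels were followed. Folfiri was 5FU at 50 μg/μl, the unit as written by the submitters, plus SN38 at 100 nM. 5FU blocks thymidylate synthesis, and SN38, the active form of irinotecan, inhibits topoisomerase I. Both groups come from the same organoid line, so the values describe 1 line, and the p-values measure the spread between cultures of that line. Polyadenylated RNA was sequenced in bulk, in which fewer cells of a type and less RNA per cell cannot be told apart.

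Glucose enters through facilitative transporters and is trapped by hexokinase. Phosphofructokinase makes the committed step, and it is stimulated by fructose 2,6-bisphosphate, which the Pfkfb enzymes make and break down. Pyruvate is reduced to lactate by lactate dehydrogenase and exported, or enters mitochondria through the Mpc1 and Mpc2 carrier and is oxidized by pyruvate dehydrogenase, which the Pdk kinases switch off. The pentose phosphate path branches from glucose 6-phosphate and supplies NADPH and the ribose of nucleotides. Many of these genes are known targets of the hypoxia inducible factors and of Myc, and tumor cells commonly express them at high levels even in oxygen.

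The libraries held between 22103591 and 30098210 counts on genes. Levels are TMM-normalized CPM, that is counts scaled to a common library size and composition, and are given in the order of replicates 1, 2 and 3. Differences are log2 fold changes of Folfiri minus Control from edgeR's quasi-likelihood test with their standard error (SE), and adjusted p is the Benjamini-Hochberg value over all 14692 genes, called at 0.05. Control replicate 1 stood apart from the other control samples, with a chi-square per degree of freedom over genes of 23.7 and 22.4 against control replicates 2 and 3, which differed from each other by 3.84. Without it, 34 members were again called lower and 2 higher, with a median log2 fold change of -1.24 in place of -1.18. Folfiri replicate 3 stood apart to a lesser degree, at 12.3 and 11.9 against Folfiri replicates 1 and 2, which differed by 3.55, and without it 33 members were lower and 2 higher, with a median of -1.18. Of 9 epithelial marker genes 5 were lower (38.8% of all tested genes), most of all Cdx2 at -1.53 on the log2 scale. Only Cdh1 was higher, at 0.21 (40.3% of all tested genes). The summed level of the 9 went from between 5977 and 6947 CPM in controls to between 4818 and 4992 CPM after Folfiri. Summed levels of 8 immune markers were between 21.7 and 26.4 CPM in controls and between 22.4 and 23.5 CPM after Folfiri, mostly Cd68, with Ptprc and Adgre1 higher at low levels. The 8 fibroblast markers summed to between 1.08 and 1.49 CPM and then between 2.15 and 2.65 CPM, with Dcn and Pdgfra higher and Col1a1 lower, and the 4 muscle markers stayed under 1 CPM. A further 3 endothelial markers summed to between 72.2 and 125 CPM in controls and between 65.5 and 76.2 CPM after Folfiri, nearly all of it Cdh5. Cd3e and Cldn5, of the immune and endothelial lists, were not among the genes in the deposited counts. The part of these markers in the results was not tested.

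The DNA ahead of a RefSeq start site is shown for 8 members, because hypoxia inducible factors bind DNA at the letters ACGTG, or at the same core with G in front, which is GCGTG. Each stretch is RefSeq sequence of GRCm38.p6, read 5′ to 3′ on the gene's strand, from upstream of an annotated start site and outside annotated exons, and capitals mark either core on either strand. The genes were chosen after their values were seen, and are no sample of the members: 5 that fell and hold a core, Aldoc, which fell most, and both genes that rose, Rpia and Eno2. In the order below, the stretches are chr4:119108511-119108710 (plus strand) for Slc2a1, the glucose transporter GLUT1, chr11:120948853-120949052 (plus) for Slc16a3, the lactate exporter MCT4, chrX:106186900-106187099 (plus) for Pgk1, chr7:46845604-46845803 (plus) for Ldha, chr2:71873024-71873223 (plus) for Pdk1, chr11:78322823-78322967 (plus) for Aldoc, chr6:70792233-70792425 (minus) for Rpia and chr6:124769674-124769862 (minus) for Eno2. For Slc2a1, Slc16a3, Ldha, Aldoc and Rpia this start site lies inside the span that GENCODE gives the gene, downstream of its first annotated base. The stretches of Slc2a1, Slc16a3, Aldoc and Rpia end 34, 14, 105 and 57 bases ahead of the start site.
Slc2a1: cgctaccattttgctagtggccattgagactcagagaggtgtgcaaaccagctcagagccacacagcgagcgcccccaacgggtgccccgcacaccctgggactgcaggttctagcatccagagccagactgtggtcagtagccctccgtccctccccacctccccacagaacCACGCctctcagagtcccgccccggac
Slc16a3: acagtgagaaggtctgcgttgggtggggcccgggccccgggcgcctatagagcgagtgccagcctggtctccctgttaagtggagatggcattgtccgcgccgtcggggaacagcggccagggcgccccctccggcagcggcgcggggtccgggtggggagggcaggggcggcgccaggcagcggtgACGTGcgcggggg
Pgk1: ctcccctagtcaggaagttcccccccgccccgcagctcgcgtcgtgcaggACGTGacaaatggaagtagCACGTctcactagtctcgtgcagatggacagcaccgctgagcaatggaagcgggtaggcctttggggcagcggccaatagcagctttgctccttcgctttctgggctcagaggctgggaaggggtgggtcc
Ldha: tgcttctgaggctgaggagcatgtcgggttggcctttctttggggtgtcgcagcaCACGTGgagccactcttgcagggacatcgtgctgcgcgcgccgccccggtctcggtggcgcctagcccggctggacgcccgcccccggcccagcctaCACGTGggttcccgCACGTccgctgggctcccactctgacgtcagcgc
Pdk1: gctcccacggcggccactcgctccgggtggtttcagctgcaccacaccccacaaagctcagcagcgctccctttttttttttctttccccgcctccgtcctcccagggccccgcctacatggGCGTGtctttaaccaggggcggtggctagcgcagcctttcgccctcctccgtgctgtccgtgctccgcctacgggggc
Aldoc: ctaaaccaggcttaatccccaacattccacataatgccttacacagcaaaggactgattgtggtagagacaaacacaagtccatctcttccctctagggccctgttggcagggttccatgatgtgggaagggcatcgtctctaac
Rpia: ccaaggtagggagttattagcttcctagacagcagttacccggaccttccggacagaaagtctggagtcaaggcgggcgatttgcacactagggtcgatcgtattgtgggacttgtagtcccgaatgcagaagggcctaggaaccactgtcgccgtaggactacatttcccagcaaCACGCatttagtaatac
Eno2: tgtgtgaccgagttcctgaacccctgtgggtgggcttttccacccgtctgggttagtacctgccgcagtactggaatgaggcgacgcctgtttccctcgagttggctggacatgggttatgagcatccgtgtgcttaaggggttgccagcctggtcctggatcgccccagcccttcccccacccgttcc
The Ldha stretch holds 5 matches, since CACGTG matches on both strands, Pgk1 2, and Slc2a1, Slc16a3, Pdk1 and Rpia 1 each, and those of Aldoc and Eno2 have none. The Aldoc stretch is shorter, 145 bases, because annotated exons take up 105 of the 250 bases ahead of its start site, and those 250 bases hold 1 match outside the stretch printed. For Slc2a1 and Slc16a3 the 250 bases hold 2 matches each, of which the stretch printed holds 1. RefSeq windows from 250 bases before to 50 bases after the start site were found for 40 of the 41 members, all but Slc2a3, and counted 61 because some genes have several start sites. On either strand, ACGTG was present in 23 of the 61 windows (37.7%) and in 19.6% of all 32851 windows of the same length, and GCGTG in 35 (57.4%) and 32.4%. CACGTG, the E-box core that Myc binds and which contains ACGTG on both strands, was in 6 windows (9.84%) and in 7.15% of all windows. Either core was in 45 of the 61 windows (73.8%) and in 43.8% of all windows. Counted by gene, ACGTG was found in 19 of the 34 members that fell and in none of the 6 others, 4 of which did not pass the test. GCGTG was found in 24 of 34 and 5 of 6, and either core in 30 of the 34 and in 5 of the 6. Counts by gene take a match in any window of a gene, so the shares of windows are no direct reference for them. These counts describe letters and were not tested, and a match is not a measured binding site.

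Measured as a share of the whole library, the 41 genes took up 2.92%, 3.28% and 3.16% of all gene counts in the control samples and 1.46%, 1.34% and 1.39% after Folfiri. Every treated sample lay below every control sample, and the mean fell from 3.12% ± 0.181 to 1.398% ± 0.0616 (SD, n = 3 each), a ratio of 0.448. The loss was unequal along the pathway. The ratio of the mean shares was 0.189 for the pyruvate dehydrogenase kinases, 0.285 for the transporters and 0.302 for the steps from hexokinase to triose phosphate isomerase. It was 0.462 for lactate dehydrogenase, 0.464 for the Pfkfb enzymes and 0.507 from glyceraldehyde 3-phosphate to pyruvate. The oxidative and non-oxidative pentose phosphate steps had ratios of 0.691 and 0.712, and the mitochondrial entry genes 0.808. These shares sum raw counts without TMM scaling, so the genes with most reads weigh most. By median log2 fold change of the genes, the oxidative steps fell more, at -1.44, than those from glyceraldehyde 3-phosphate to pyruvate, at -0.997.

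**Figure D1:**
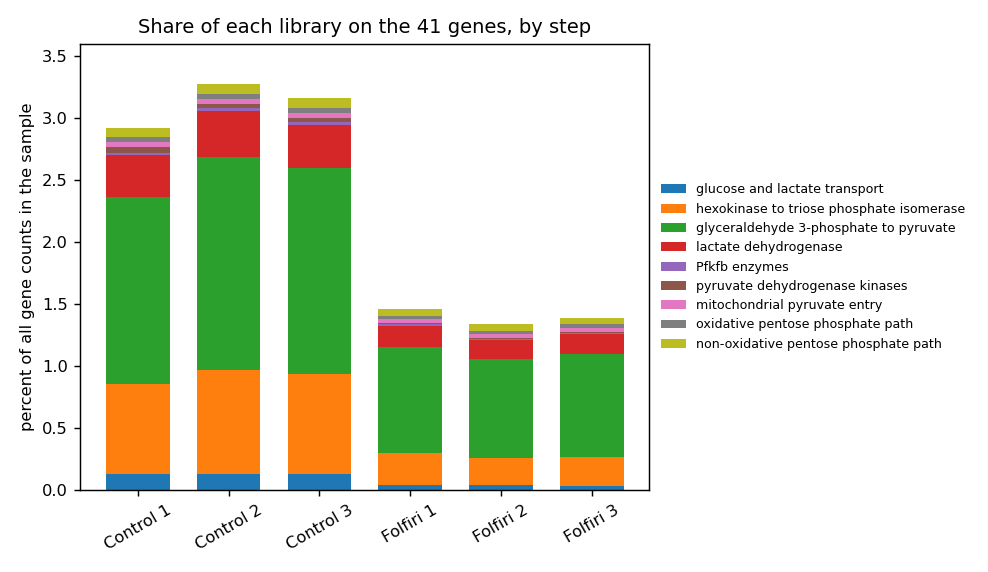
Percent of all gene counts in each of the 6 samples (y axis, starting at 0) that fell on the 41 genes, with bars stacked by step of the pathway. The 3 Control bars reach 2.92% to 3.28% and the 3 Folfiri bars 1.34% to 1.46%, and the steps from glyceraldehyde 3-phosphate to pyruvate make up the widest band in every sample.

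Of the 40 tested members, 34 were called lower, where 38.8% of all tested genes were called lower, and 2 were called higher, where the figure for all tested genes was 40.3%. By more than 1 on the log2 scale, 22 members fell (16.8% of all tested genes) and 1 rose (19.5%). All 3 Folfiri samples lay below all 3 control samples for 33 members (39.9% of all tested genes) and above them for 3 (41.6%), namely Eno2, Rpia and Mpc2. The median log2 fold change was -1.18 over the members and 0.02 over all tested genes. Relative to the control mean, the median of the members was -0.12, 0.07 and 0.05 in the control samples and -1.16, -1.20 and -1.16 after Folfiri. Scaling by total counts only raised every fold change, giving 29 members lower, 4 higher and a median of -0.90 beside 0.30 for all genes. Since a change of scaling moves all genes by nearly the same amount, the distance between these medians stayed at -1.20, which is no separate support.

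**Figure D2:**
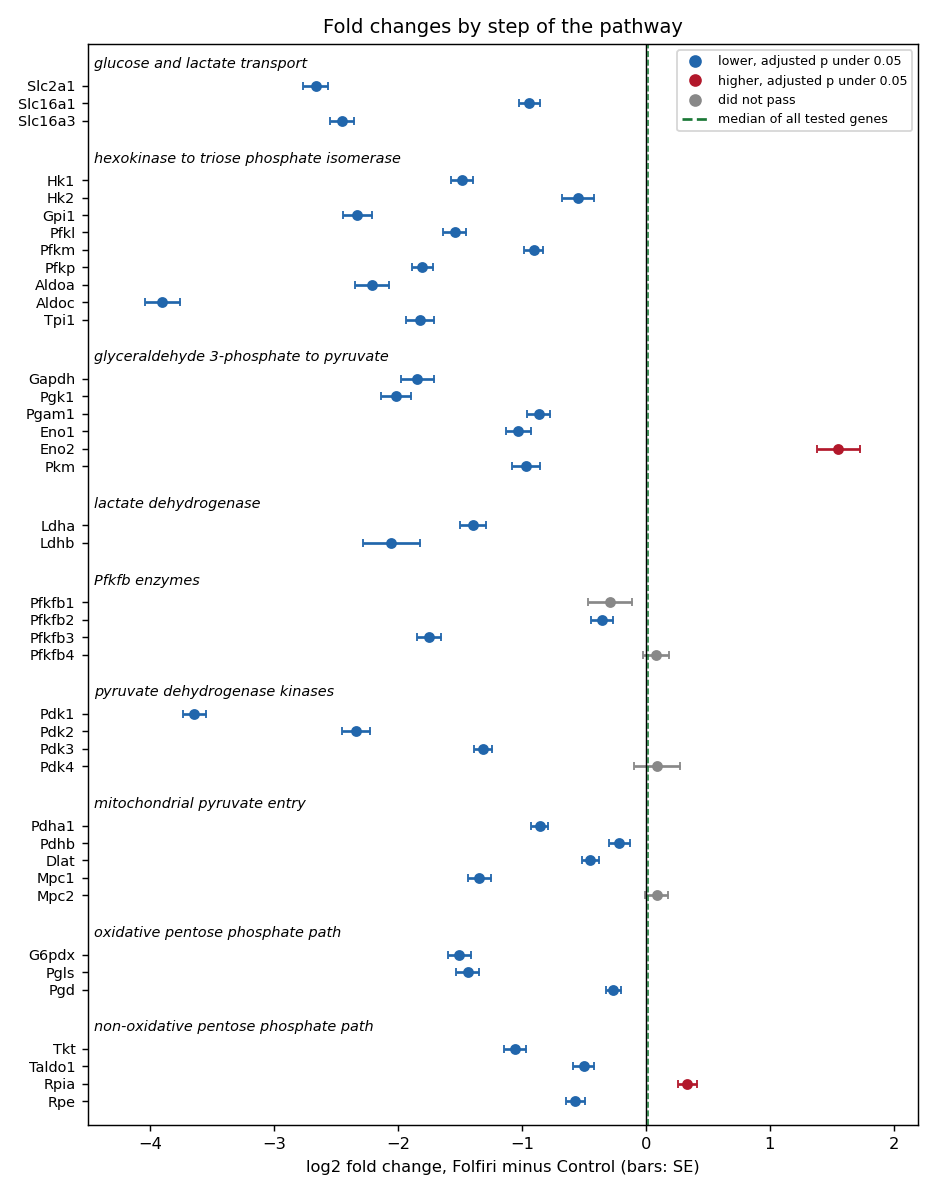
Log2 fold change of Folfiri minus Control (x axis) for the 40 tested members, grouped by step, with bars for 1 SE of the edgeR fit and the color for the call. The points run from Aldoc at -3.90 to Eno2 at 1.55, and most lie left of the dashed line, the median of all tested genes at 0.02.

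All 3 tested transporters fell, with a median log2 fold change of -2.45. Slc2a1 (ENSMUSG00000028645, chromosome 4 from 119108711 to 119137983, GRCm38), the main basal glucose carrier of dividing cells, was at 541, 683 and 643 CPM in controls and 105, 93.5 and 96.0 CPM after Folfiri. The groups did not overlap, and the level was 6.33-fold lower (log2 fold change -2.66, SE 0.10, adjusted p = 7.64e-09). Slc16a3 (ENSMUSG00000025161, chromosome 11 from 120948480 to 120960868), which exports lactate from strongly glycolytic cells, measured 570.3, 561 and 529.9 CPM in controls against 115, 92.8 and 96.5 CPM in treated MTOs. It too separated the groups fully and was 5.47-fold lower (log2 fold change -2.45, SE 0.10, adjusted p = 7.98e-09). Slc16a1, the monocarboxylate transporter MCT1, which moves lactate either way, fell less, from between 251 and 277 CPM to between 125 and 150.3 CPM (log2 fold change -0.94, SE 0.08). Slc2a3, the glucose transporter of neurons known as GLUT3, had 12, 2 and 3 counts in controls and 12, 6 and 10 after Folfiri and was too low to test.

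The steps from hexokinase to triose phosphate isomerase fell throughout, 9 of 9 members, with a median of -1.80. Hk1, the housekeeping hexokinase, was at 370.0, 440.4 and 427 CPM and then 156, 149 and 139 CPM (log2 fold change -1.48, SE 0.09), with separate groups. Hk2, the inducible hexokinase of tumors, was at 146, 107 and 97.4 CPM in controls and 82.6, 83.9 and 73.8 CPM after Folfiri. Its control values were the most uneven of the step, highest in control replicate 1, and its fold change of -0.55 (SE 0.13, adjusted p = 0.00284) became -0.35 without that sample and -0.28 with total counts only, which ended the call (adjusted p = 0.141). Gpi1, the isomerase that makes fructose 6-phosphate, dropped from 1201, 1599 and 1559 CPM to 302, 279 and 287 CPM, 5.02-fold (log2 fold change -2.33, SE 0.12), and its samples did not overlap. Exons of Gm26762 on the opposite strand cover 11.5% of its exonic bases, and without the strand setting of the counting the reads of such overlapping genes cannot be told apart. Copies of Gpi1, mainly Gm1840, held counts equal to 9.35% of its own in controls and 10.2% after Folfiri. Overlaps with other genes also cover 10.7% of the exonic bases of Pfkm, 5.58% of Pfkp, 19.5% of Pfkfb2, 16.1% of Pdha1 and 17.9% of Rpe.

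The liver-type phosphofructokinase Pfkl was measured at 463, 476 and 443 CPM in controls and 180.4, 145 and 150.1 CPM after treatment (log2 fold change -1.54, SE 0.09). Pfkp, the platelet type and the one with most reads, was at 582, 638 and 641 CPM and then 194, 173 and 167 CPM (log2 fold change -1.80, SE 0.09). Both separated the groups. The muscle-type Pfkm moved less, with a log2 fold change of -0.91 (SE 0.07) and levels between 86.7 and 97.5 CPM in controls and between 47.2 and 50.8 CPM after Folfiri.

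Aldolase splits fructose 1,6-bisphosphate into triose phosphates. Aldoa, the ubiquitous form, fell from 2309.9, 3114 and 3040.0 CPM to 682, 564 and 586 CPM (log2 fold change -2.21, SE 0.13). Aldoc (ENSMUSG00000017390, chromosome 11 from 78322968 to 78327781), best known as the aldolase of brain, was at 461, 631 and 621 CPM in controls and 43.6, 35.1 and 36.1 CPM after Folfiri. It was 14.9-fold lower (log2 fold change -3.90, SE 0.14, adjusted p = 6.22e-09), the lowest fold change of the 40 members and the 59th lowest of all tested genes. Tpi1, which interconverts the triose phosphates, was at 1889, 2389.9 and 2257 CPM and then 649, 566 and 632 CPM (log2 fold change -1.82, SE 0.11). For these 3 genes, too, no treated sample reached a control sample.

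Between glyceraldehyde 3-phosphate and pyruvate, 5 of 6 members fell and 1 rose, with a median of -0.997. Gapdh (ENSMUSG00000057666, chromosome 6 from 125161715 to 125166467), the dehydrogenase often used as a reference gene, went from 2437, 3453 and 3250.1 CPM to 865, 798 and 883 CPM, with control replicate 1 the lowest of the controls and no overlap. It was 3.59-fold lower (log2 fold change -1.84, SE 0.13, adjusted p = 4.65e-07). Gapdh has 177 annotated genes or pseudogenes with near-identical sequence, 134 of them with counts, and their counts came to 36.0% of its own in controls and 37.7% after Folfiri. With the copies added, the log2 fold change was -1.84. Pgk1 (ENSMUSG00000062070, chromosome X from 106187100 to 106203699), the phosphoglycerate kinase that makes the first ATP of the path, was at 3168, 4140.4 and 4079 CPM in controls and 999.96, 883 and 935 CPM after Folfiri. Its groups were separate and the fall was 4.04-fold (log2 fold change -2.02, SE 0.12).

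Eno1, the ubiquitous enolase, went from 2736, 3281 and 3204 CPM to 1541, 1479 and 1504 CPM (log2 fold change -1.03, SE 0.10). Its copy Eno1b shares most of its sequence and, with 1 further copy, held counts equal to 55.7% of Eno1 in controls and 57.8% after Folfiri, and with copies added the fold change was -1.02. Pgam1, phosphoglycerate mutase, and Pkm, the pyruvate kinase of most tissues and tumors, fell a little less, by 0.86 (SE 0.09) and 0.97 (SE 0.11) on the log2 scale. Pkm had the most reads of all members, between 5606 and 6705 CPM in controls and between 3081 and 3284 CPM after Folfiri, and exons of Gm49759 share 15.3% of its bases.

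Eno2 (ENSMUSG00000004267, chromosome 6 from 124760053 to 124769673), the enolase of neurons and neuroendocrine cells, moved the other way. It was at 1.15, 1.48 and 1.18 CPM in controls and 3.55, 3.65 and 4.04 CPM after Folfiri, so that every treated sample exceeded every control sample. The level was 2.94-fold higher (log2 fold change 1.55, SE 0.17, adjusted p = 1.14e-05), from a low base. Per exonic length, Eno2 had 0.270 ± 0.0384 RPKM in controls and 0.796 ± 0.0542 RPKM after Folfiri, beside 571 ± 54.8 and 280 ± 5.78 RPKM for Eno1 (SD, n = 3 each). RPKM is the level per kilobase of exon, on the same normalized scale.

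Lactate dehydrogenase fell in both subunits. Ldha (ENSMUSG00000063229, chromosome 7 from 46841475 to 46855627), the muscle-type subunit that favors lactate formation, was at 3459, 4153 and 3923 CPM in controls and 1533, 1371 and 1489 CPM after Folfiri (log2 fold change -1.39, SE 0.11, adjusted p = 7e-07). Ldhb, the heart-type subunit, was scarce at 2.09, 2.72 and 2.73 CPM and then 0.738, 0.581 and 0.485 CPM (log2 fold change -2.05, SE 0.23). Neither gene showed overlap between groups. Per length, Ldha exceeded Ldhb in both conditions, at 1162 ± 107 against 1.60 ± 0.233 RPKM in controls and 442 ± 25.4 against 0.383 ± 0.0811 RPKM after Folfiri (SD, n = 3 each).

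**Figure D3:**
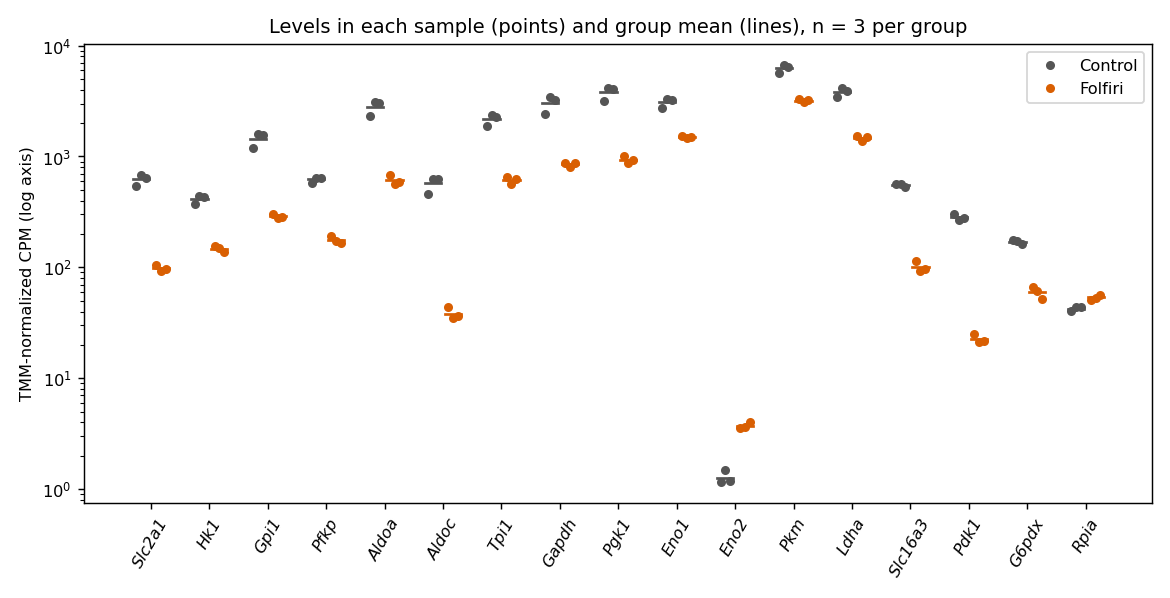
TMM-normalized CPM (log axis) of 17 members in each of the 3 Control and 3 Folfiri samples, with points for samples and lines for group means. Every gene drawn has separate groups, with Folfiri below Control for 15 of the 17 and above it for Eno2 and Rpia.

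The Pfkfb enzymes, which set fructose 2,6-bisphosphate, did not move together. Pfkfb3, the form with the strongest kinase activity and an inducible gene of proliferating cells, was at 169.9, 219 and 213 CPM in controls and 62.5, 59.2 and 57.3 CPM after Folfiri. It fell 3.36-fold with separate groups (log2 fold change -1.75, SE 0.10, adjusted p = 9.17e-08). Pfkfb2, the heart form, had a log2 fold change of -0.35 (SE 0.09), and this call ended with total counts only, at -0.08. Pfkfb4, the testis form, did not pass the test at 0.08 (SE 0.10, adjusted p = 0.471), with levels between 10.1 and 11.8 CPM over all 6 samples, and nor did the liver form Pfkfb1 at -0.29 (SE 0.18, adjusted p = 0.153). With total counts only, Pfkfb4 was called higher, at 0.36.

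Among the pyruvate dehydrogenase kinases, 3 of 4 fell. Pdk1 (ENSMUSG00000006494, chromosome 2 from 71873224 to 71903858), a hypoxia-inducible kinase that blocks the oxidation of pyruvate in mitochondria, was at 304, 265 and 279 CPM in controls and 24.8, 21.4 and 21.7 CPM after Folfiri. No sample came near the other group, and the level was 12.5-fold lower (log2 fold change -3.64, SE 0.09, adjusted p = 1.24e-09), the 89th lowest fold change of all tested genes. Pdk2, the most widely expressed kinase, was at 62.1, 77.9 and 69.8 CPM and then 15.6, 12.7 and 13.2 CPM (log2 fold change -2.34, SE 0.11). Pdk3 went from 62.8, 65.9 and 66.2 CPM to 27.0, 25.9 and 25.5 CPM (log2 fold change -1.31, SE 0.07). These 2 kinases also separated the groups. Pdk4, the kinase induced by fasting, was low at 3.71, 2.399 and 2.62 CPM in controls and 3.19, 3.20 and 3.004 CPM after Folfiri, and its groups overlapped (log2 fold change 0.09, SE 0.18, adjusted p = 0.662).

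Among the 5 genes of pyruvate entry and oxidation, 4 fell, with a median log2 fold change of -0.45. Mpc1, a subunit of the mitochondrial pyruvate carrier, was at 32.9, 36.0 and 37.0 CPM in controls and 12.8, 13.8 and 15.05 CPM after Folfiri, with no overlap (log2 fold change -1.34, SE 0.09, adjusted p = 3.42e-07). Exons of an opposite-strand gene, 4930506C21Rik, cover 23.1% of its bases. Mpc2, its obligate partner, was at 14.4, 14.0 and 14.5 CPM and then 14.7, 14.9 and 16.1 CPM. The difference was 0.09 on the log2 scale (SE 0.09, adjusted p = 0.389), which did not pass the test although the treated samples lay just above the controls, and it was called higher with total counts only, at 0.36. Pdha1 and Pdhb, the E1 subunits of pyruvate dehydrogenase, and Dlat, its E2 subunit, had log2 fold changes of -0.86 (SE 0.07), -0.21 (SE 0.09, adjusted p = 0.0435) and -0.45 (SE 0.07). The call of Pdhb was marginal, since its groups overlapped at 95.4 CPM in control replicate 1 and 97.0 CPM in Folfiri replicate 3, and it was lost when any sample other than control replicate 1 was left out. With total counts only Pdhb stood at 0.07 and Dlat at -0.17, neither called.

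In the oxidative pentose phosphate path, all 3 enzymes fell. G6pdx, glucose 6-phosphate dehydrogenase, the entry enzyme and first source of NADPH, was at 176, 172 and 163 CPM in controls and 66.9, 60.7 and 52.1 CPM after Folfiri (log2 fold change -1.51, SE 0.09, adjusted p = 1.55e-07). Exons of Ikbkg on the other strand cover 13.6% of its bases. Pgls, the lactonase of the second step, was at 62.9, 73.0 and 74.0 CPM and then 27.1, 24.1 and 26.3 CPM (log2 fold change -1.44, SE 0.09), and it shares 20.6% of its bases with Fam129c. In both, the treated samples were well below the controls. Pgd, the second NADPH-forming dehydrogenase, fell only by 0.26 (SE 0.06, adjusted p = 0.00317) on the log2 scale, and stood at 0.01 with total counts only.

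The non-oxidative enzymes, which rearrange pentose phosphates, had 3 genes lower and 1 higher. Tkt, transketolase, went from 480.0, 585 and 569.9 CPM to 262, 259 and 267 CPM with separate groups (log2 fold change -1.05, SE 0.09, adjusted p = 1.31e-06). Taldo1, transaldolase, and Rpe, the ribulose phosphate epimerase, had smaller changes of -0.50 (SE 0.08) and -0.57 (SE 0.08). Rpia, the isomerase that makes ribose 5-phosphate for nucleotides, was at 40.4, 43.5 and 43.7 CPM in controls and 51.1, 53.1 and 56.7 CPM after Folfiri. All treated samples were above all controls (log2 fold change 0.34, SE 0.08, adjusted p = 0.00207).

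Unequal changes among isozymes were then compared within samples, since the ratio of 2 genes in a library does not depend on how libraries are scaled. Of 13 planned pairs, 12 had both genes tested, and in each of the 12 the ratios of the Folfiri samples were all above or all below those of the controls. Such separation was common in these data, since 39.9% of all tested genes lay fully below and 41.6% fully above the controls, and the share for gene pairs at large was not computed. By an exact permutation test, two-sided, p was 0.1 for every pair and 0.1 after adjustment over 12 pairs, which is the lowest value possible with 3 against 3. The ratio of Slc16a3 to Slc16a1 fell by 1.51 on the log2 scale, from 1.06 ± 0.125 to -0.45 ± 0.215 (SD, n = 3 each). Per length, Slc16a3 made up 63.5% ± 2.01 of the pair in controls and 37.9% ± 3.46 after Folfiri, so the more abundant lactate transporter of the pair differed between the conditions. Aldoc made up 15.3% ± 0.151 of Aldoa plus Aldoc and then 5.29% ± 0.0925, a difference in log2 ratio of -1.69.

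Hk2 gained on Hk1, from 28.8% ± 6.30 to 43.6% ± 0.848 of the pair per length, a difference in log2 ratio of 0.95. In controls its log2 ratio was -1.34 in replicate 1 and -2.04 and -2.13 in the other samples, against -0.91, -0.83 and -0.91 after Folfiri. Pfkm gained 0.64 on Pfkl, and Pfkp lost 0.26. The kinases shifted further, with Pdk3 rising from 41.2% ± 2.33 to 77.8% ± 0.956 of Pdk1 plus Pdk3 per length, and Pdk2 from 37.8% ± 4.28 to 60.005% ± 0.684 of Pdk1 plus Pdk2. Pdk4 to Pdk1 was the ratio with the widest difference, 3.77, and Pdk4 went from 2.21% ± 0.365 to 23.5% ± 1.37 of that pair.

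Pfkfb4 rose by 1.82 relative to Pfkfb3 on the log2 scale, and Mpc2 by 1.43 relative to Mpc1. The subunit Ldhb lost a further 0.66 against Ldha, and stayed under 1% of the pair per length in every group mean. Eno2 gained 2.57 on Eno1, yet was 0.0473% ± 0.00473 of the enolase pair per length in controls and 0.283% ± 0.0215 after Folfiri.

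**Figure D4:**
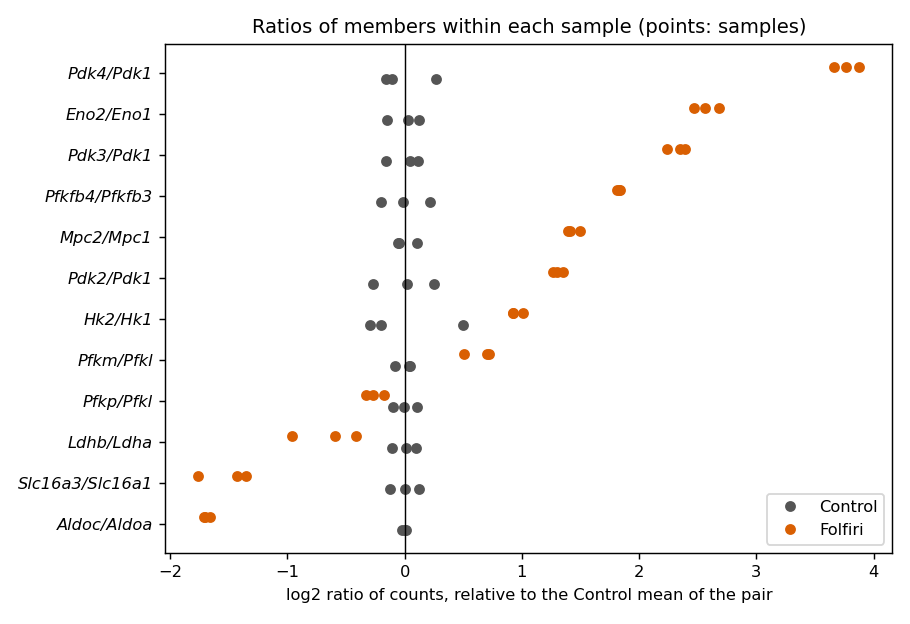
Log2 ratio of counts of 2 members within each sample, relative to the control mean of the pair (x axis), for 12 pairs, with 1 point per sample. The Folfiri points lie to the right of the controls for 8 pairs, up to 3.77 for Pdk4 to Pdk1, and to the left for 4, down to -1.69 for Aldoc to Aldoa.

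A further 50 genes of sugar and pyruvate metabolism that are not on the member list were counted in the same way. Of these, 32 were tested, 14 were lower (38.8% of all tested genes), 12 were higher (40.3%) and 6 did not pass, with a median log2 fold change of -0.01. Among the genes that fell, Bsg, the chaperone that MCT1 and MCT4 need to reach the membrane, went from 2334, 3290.4 and 3237 CPM to 591, 548 and 615 CPM (log2 fold change -2.34, SE 0.14). Pgm1, a phosphoglucomutase that links glycogen to glycolysis, was at -2.38 (SE 0.09). Pck2, the mitochondrial phosphoenolpyruvate carboxykinase, was at -2.30 (SE 0.09) and Ldhd, the dehydrogenase of D-lactate, at -1.96 (SE 0.15). Exons of opposite-strand genes cover 42.2% of Ldhd and 13.6% of Pgm1.

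Of the 12 that rose, Tigar, a fructose bisphosphatase that lowers fructose 2,6-bisphosphate, was at 9.47, 4.84 and 5.40 CPM in controls and 31.2, 32.4 and 30.8 CPM after Folfiri (log2 fold change 2.24, SE 0.20, adjusted p = 1.87e-06). Pdhx, the protein that anchors E3 in the pyruvate dehydrogenase complex, was at 13.4, 12.2 and 10.8 CPM and then 37.1, 37.3 and 39.0 CPM (log2 fold change 1.63, SE 0.10). In both genes all treated samples were higher than all controls. The monocarboxylate transporter Slc16a8 (log2 fold change 3.51, SE 0.41), the glycerol 3-phosphate dehydrogenase Gpd1 (1.56, SE 0.19) and the insulin-responsive glucose transporter Slc2a4 (1.40, SE 0.27) rose from levels under 2 CPM in every control sample.

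**Figure D5:**
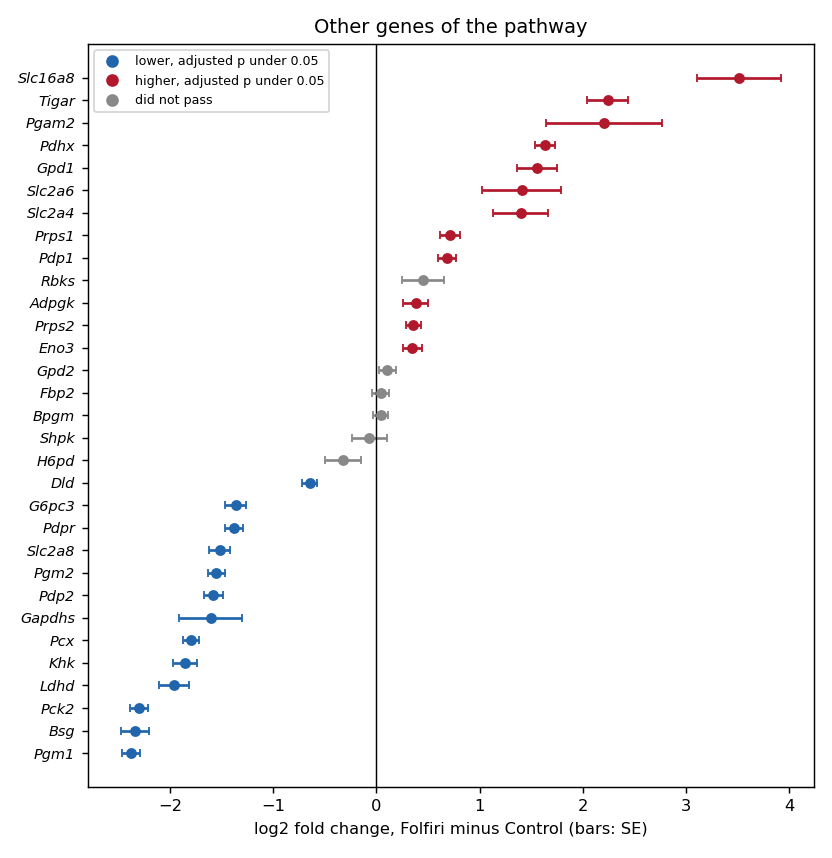
Log2 fold change of Folfiri minus Control (x axis, bars for 1 SE of the edgeR fit) for 31 of the 32 tested genes of sugar and pyruvate metabolism that are not among the 41. The genes drawn spread to both sides of 0, from Pgm1 at -2.38 to Slc16a8 at 3.51, with 13 called lower and 12 called higher.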

How the data were processed

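RNA of 3 Control and 3 Folfiri samples was sequenced as polyadenylated RNA. The authors aligned the reads to GRCm38 with STAR (version 2.5.2 in the submitters' processing notes) and GENCODE vM25, and deposited raw counts per gene made with Rsubread. The strand setting and the treatment of reads with several positions are not given in the sources used here. Groups follow the labels.

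These deposited counts were analysed with edgeR 4.0.16 (R 4.3.3), using filterByExpr at its defaults (minimum count 10, minimum total 15), TMM and the quasi-likelihood test over all 14692 genes kept, with Benjamini-Hochberg adjustment. Totals of 22103591 to 30098210 counts set the precision, and counting error is only part of the spread between samples. Symbols, positions and exonic lengths came from GENCODE vM21 on the same build, in which 24168 of the 24190 gene IDs matched. Ratios of isozymes used counts plus 0.5. Near-identical copies were sought with BLAST 2.17.0 at 90% identity over 200 bases.

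The members, the 50 further genes, the 11 regulators and the marker lists were chosen with earlier results of these data known. All members are named, with values in every sample for those past the threshold with a log2 fold change of at least 1 in size, and from the other lists up to 5 genes that rose and 5 that fell, those that changed most among genes averaging 1 CPM or more. Other settings tried were upper quartile scaling, scaling by total counts only, size factors from DESeq2 1.42.0 and its Wald test, no filter, a filter of 1 CPM in 3 samples, a block for the replicate number, leaving out each sample in turn, a prior count of 2 for ratios and, chosen after seeing the data, copies summed. Results for some genes that this rule covers are left out of the text. The procedure was tested on simulated data.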

Additional observations from a re-analysis of the deposited data

How the results depend on the processing

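Calls were recomputed under 8 other analyses and with each of the 6 samples left out. Of 560 such values for the 40 tested members, 544 kept their direction and their side of the threshold, 11 kept their direction and lost the call, 2 gained one and 3 changed sign, and 32 of the 40 members kept both throughout. The 8 others were Hk2, Pfkfb2, Pfkfb4, Pdk4, Pdhb, Dlat, Mpc2 and Pgd, of which Pdk4 changed in sign only and was never called. Scaling by total counts only had the widest effect, since it raises every fold change. It gave 4 members higher, 29 lower and a median of -0.90, put Pdhb at 0.0685 and Pgd at 0.0147, and raised the share of higher calls among all called genes from 51.0% to 63.3%. Pdk4 changed sign without control replicate 2, with a range of -0.0480 to 0.323 over the samples left out. Pdhb also lost its call with upper quartile scaling (-0.16), a filter of 1 CPM, DESeq2's test and 5 of the 6 samples left out, and the cause was not tested. Over the samples left out, 33 to 34 members were lower, 2 were higher and the median ran from -1.24 to -1.16. The replicate numbers do not pair the samples (correlations of same-numbered deviations 0.0267, -0.117 and 0.0393), and with the replicate block 34 members were lower, 2 higher, and 11499 genes were called in place of 11623. All 84 alternative values of the isozyme ratios kept their direction. With near-identical copies summed, 34 members were lower and 2 higher, with a median of -1.19. At this depth Slc2a3 had too few counts to test.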

Other observations

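A list of 11 known regulators and sensors of these genes was examined beside them. Hif3a, a hypoxia inducible factor subunit that is itself hypoxia-inducible, went from 61.7, 57.4 and 53.9 CPM in controls to 2.48, 1.78 and 2.43 CPM after Folfiri (log2 fold change -4.69, SE 0.13, adjusted p = 1.61e-09 by edgeR's quasi-likelihood test). The subunits Epas1 and Hif1a were lower by less, at -1.08 (SE 0.09) and -0.51 (SE 0.08), with treated samples below controls for each. Myc, a transcription factor that drives many glycolytic genes, rose from 95.4, 84.8 and 73.7 CPM to 288, 287 and 290.5 CPM (log2 fold change 1.77, SE 0.09, adjusted p = 5.57e-08). Of the glucose-sensing pair, Mlxip rose by 0.78 and Mlxipl was at -0.51 on the log2 scale. Their target Arrdc4 rose by 0.97, from 25.3, 44.7 and 45.6 CPM to 75.1, 72.7 and 78.4 CPM, whereas Txnip did not pass the test at -0.48 (SE 0.26, adjusted p = 0.114), with 478, 1147 and 1197 CPM in controls and 697, 680.3 and 643 CPM after Folfiri. In both Txnip and Arrdc4, control replicate 1 was the lowest of the controls. Nfe2l2, which drives the pentose phosphate genes under oxidative stress, was higher by 0.25, Ppargc1a rose at under 1 CPM, and Esrra did not pass. Over the list, 5 genes were higher, 4 lower and 2 not called, beside 40.3% higher and 38.8% lower over all tested genes.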
